A study of Mus musculus with 26 samples.

Results

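Whrn, Bnc2 and 7 further genes of mouse chromosome 4, the chromosome that carries Tlr4, were followed in microglia of TLR-DKO and wild-type (WT) mice. The 9 genes are Whrn, Bnc2, Trim32, Cdk5rap2, Akna, Atp6v1g1, Astn2, Tnc and Pappa, and 12 probes of the array carry an accession of one of them. They were chosen for their place on the chromosome and for the difference between TLR-DKO and WT that these arrays show, so their values in that comparison are a description and carry no test. Of the 9 genes, 7 passed the filter on dim signals and stood among the 24738 genes tested, while Astn2 and Tnc did not.

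Microglia, the resident macrophages of the brain, were collected by flow cytometry as EGFP-positive cells. The tissue, punched out at 1.5 mm, was the nucleus accumbens (NAc) or the medial prefrontal cortex (mPFC). Every mouse, of either genotype, was on a C57BL/6 background and carried the CX3CR1EGFP/+ reporter, in which one allele of the fractalkine receptor gene Cx3cr1 drives EGFP. The label TLR-DKO is not spelled out in the sources used here, and in the published study it stands for mice that lack Tlr2 and Tlr4, receptors of innate immunity. R-SDS is repeated social defeat stress, in which a mouse is exposed to an aggressive mouse, and naive mice were moved between cages instead. All mice were perfused 1.5 hours following the final session. The ages of the mice are not given in the sources used here. Each sample is a pool of 3 to 6 mice, and 500 pg of its RNA was amplified and hybridised to 1 single-colour array. In the mPFC there were 3 TLR-DKO R-SDS, 3 WT R-SDS, 4 TLR-DKO naive and 3 WT naive samples. In the NAc there were 4 TLR-DKO R-SDS, 3 WT R-SDS, 3 TLR-DKO naive and 3 WT naive samples, which makes 26 arrays in all. The labels call the stressed TLR-DKO mice resilient and the stressed WT mice susceptible, so that phenotype and genotype cannot be told apart. Samples came from 2 separate experiments that used different mice, and p-values measure the spread between these pooled samples.

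A knockout allele made in embryonic stem cells of another strain can keep a stretch of that strain's DNA around the targeted gene after backcrossing, and genes on that stretch can differ between knockout and control mice for this reason. Such passenger DNA and the loss of the receptors cannot be told apart here, because every TLR-DKO mouse carries the targeted alleles with whatever flanks them. The labels give neither the strain of the stem cells nor the number of backcrosses. Tlr4 itself recognises bacterial lipopolysaccharide and several proteins released by injured tissue.

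The members have unrelated roles. Whrn encodes whirlin, a PDZ-domain scaffold of the stereocilia of hair cells and of photoreceptors whose loss causes deafness, and Bnc2 encodes the zinc finger protein basonuclin 2. Trim32 is an E3 ubiquitin ligase whose gene lies inside an intron of Astn2, a protein of migrating neurons. Cdk5rap2 is a centrosomal protein linked to microcephaly, and Akna is an AT-hook protein that organises microtubules at the centrosome. Atp6v1g1 is a subunit of the proton pump that acidifies lysosomes. Tnc, or tenascin C, is a matrix protein and a ligand of Tlr4, and Pappa is a protease that cleaves binding proteins of insulin-like growth factors.

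In the RefSeq gene order of chromosome 4, Trim32 lies 4 places from Tlr4, Astn2 5, Pappa 6, Tnc 12, Atp6v1g1 25, Whrn 26 and Akna 29 places, all on the same side. Cdk5rap2 lies 17 places away on the other side, and Bnc2 lies 136 places away on that side. The RefSeq promoter windows of Whrn and Bnc2, the members with the widest separation between genotypes, are shown because they differ in base composition. Each window covers 250 bases before to 50 bases after the RefSeq gene start, on the minus strand of GRCm38.p6, at chr4:63495942-63496241 for Whrn and chr4:84610148-84610447 for Bnc2, and capitals mark the GC box GGGCGG.
Whrn: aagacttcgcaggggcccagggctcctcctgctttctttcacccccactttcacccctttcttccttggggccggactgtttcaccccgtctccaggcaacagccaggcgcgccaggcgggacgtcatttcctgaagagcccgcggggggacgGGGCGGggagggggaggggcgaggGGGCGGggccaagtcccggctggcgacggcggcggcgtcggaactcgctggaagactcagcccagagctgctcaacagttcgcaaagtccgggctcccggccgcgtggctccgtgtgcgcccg
Bnc2: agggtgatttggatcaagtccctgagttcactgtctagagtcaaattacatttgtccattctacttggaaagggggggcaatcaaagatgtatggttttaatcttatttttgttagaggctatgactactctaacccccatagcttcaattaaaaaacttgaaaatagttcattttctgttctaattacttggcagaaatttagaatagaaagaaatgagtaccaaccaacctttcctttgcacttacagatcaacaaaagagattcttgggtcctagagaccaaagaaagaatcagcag
The Whrn window had 70.0% G and C and the Bnc2 window 36.3%, where the median of 32851 RefSeq promoter windows was 52.7%. GGGCGG, searched on both strands, occurred 2 times in the Whrn window, without overlap, and was not found in the Bnc2 window, and 35.7% of all windows held it. The letters GAGGAA (the core of PU.1 sites), TGANTCA (AP-1), TATAAA, and the 10-letter NF-kappaB consensus, were in neither window, on either strand, and stood in 28.3%, 7.81%, 13.6% and 1.63% of all windows. The arrays hold no measure of binding in these windows. They also do not show where transcription of either gene starts. The windows rest on the RefSeq gene start alone, and whether each is an active promoter in microglia was not tested.

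Levels are log2 of the array's processed signal minus the 75th percentile of that signal on the same array, so 0 is the 75th percentile and a difference of 1 is a doubling. The targeted gene Tlr2, on chromosome 3, was well above background on 0 of 14 TLR-DKO arrays and on 12 of 12 WT arrays, and it was at least 33.1-fold lower in TLR-DKO than in WT in each region and condition. Such a bound allows for background and holds no sampling error. Tlr4 averaged 2.57 ± 0.71 (SD, n = 14) in TLR-DKO and 2.34 ± 0.56 (SD, n = 12) in WT, and since it is not known whether its probe lies in the deleted part, this checks nothing. All 8 microglia markers were well above background on all 26 arrays, and Cx3cr1 averaged 8.47 ± 0.21 in TLR-DKO and 8.46 ± 0.48 in WT. The 75th percentile ran from 80.7 to 341.1 units, and arrays of a group correlated across genes with r between 0.80 and 0.92. WT mPFC R-SDS replicate 3, the dimmest array, and TLR-DKO mPFC naive replicate 1 stood apart, with a mean r with the other arrays of 0.79 and 0.83, and the mPFC differences and the means over settings are also given without both. Precision is limited by the number of arrays. In bulk samples, fewer cells of a type and less RNA per cell cannot be told apart.

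Whrn was lower in TLR-DKO than in WT in 3 of the 4 settings and not in the mPFC after R-SDS. Its brighter probe, A_55_P2134172, was well above background on all 26 arrays. In naive NAc it read -1.35, -0.73 and -2.24 on the TLR-DKO arrays, against 2.25, 2.26 and 1.91 on the WT arrays. All TLR-DKO arrays lay below all WT arrays there, and the WT values were close together. After R-SDS in the NAc it read -1.39, 0.48, -2.24 and -0.48 in TLR-DKO, against 1.01, 0.95 and 2.78 in WT. The groups again did not overlap, although TLR-DKO replicate 2 came within 1 log2 unit of the lowest WT array. In naive mPFC the TLR-DKO arrays read -0.34, -0.14, -0.93 and -1.62, against -0.07, 3.91 and 1.27 in WT. The groups did not overlap, but WT replicate 1 lay just above the highest TLR-DKO array and WT replicate 2 was the highest of all 26. In the mPFC after R-SDS the TLR-DKO arrays read 0.22, 0.60 and -1.02, against 0.0044, -0.62 and -1.08 in WT. There the groups overlapped and the WT arrays were as low as the TLR-DKO arrays, although a difference between the settings was not tested.

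The fitted differences of this probe, TLR-DKO minus WT, were -3.58 ± 0.81 (SE) in naive NAc, -2.48 ± 0.75 in the NAc after R-SDS, -2.46 ± 0.75 in naive mPFC and 0.50 ± 0.81 in the mPFC after R-SDS. On a linear scale the signal in TLR-DKO was 0.0837, 0.179, 0.182 and 1.41 times that in WT, in the same order. With equal weight for the 4 settings the difference was -2.01 ± 0.39. Over all arrays Whrn averaged -0.80 ± 0.92 (SD, n = 14) in TLR-DKO and 1.21 ± 1.48 (SD, n = 12) in WT. These SDs include the differences between settings. Within groups the SD was larger in WT in naive mPFC only, at 2.02 against 0.67 in TLR-DKO. In WT and TLR-DKO it was 0.54 and 0.85 in the mPFC after R-SDS. In the NAc it was 0.20 and 0.76 in naive mice, and 1.04 and 1.17 after R-SDS. Without WT mPFC naive replicate 2 the difference in naive mPFC was -1.36, the smallest of that setting's alternatives. Without the 2 arrays that stood apart it was -2.60 in naive mPFC, 0.24 in the mPFC after R-SDS and -2.10 in the mean of the 4.

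**Figure D1:**
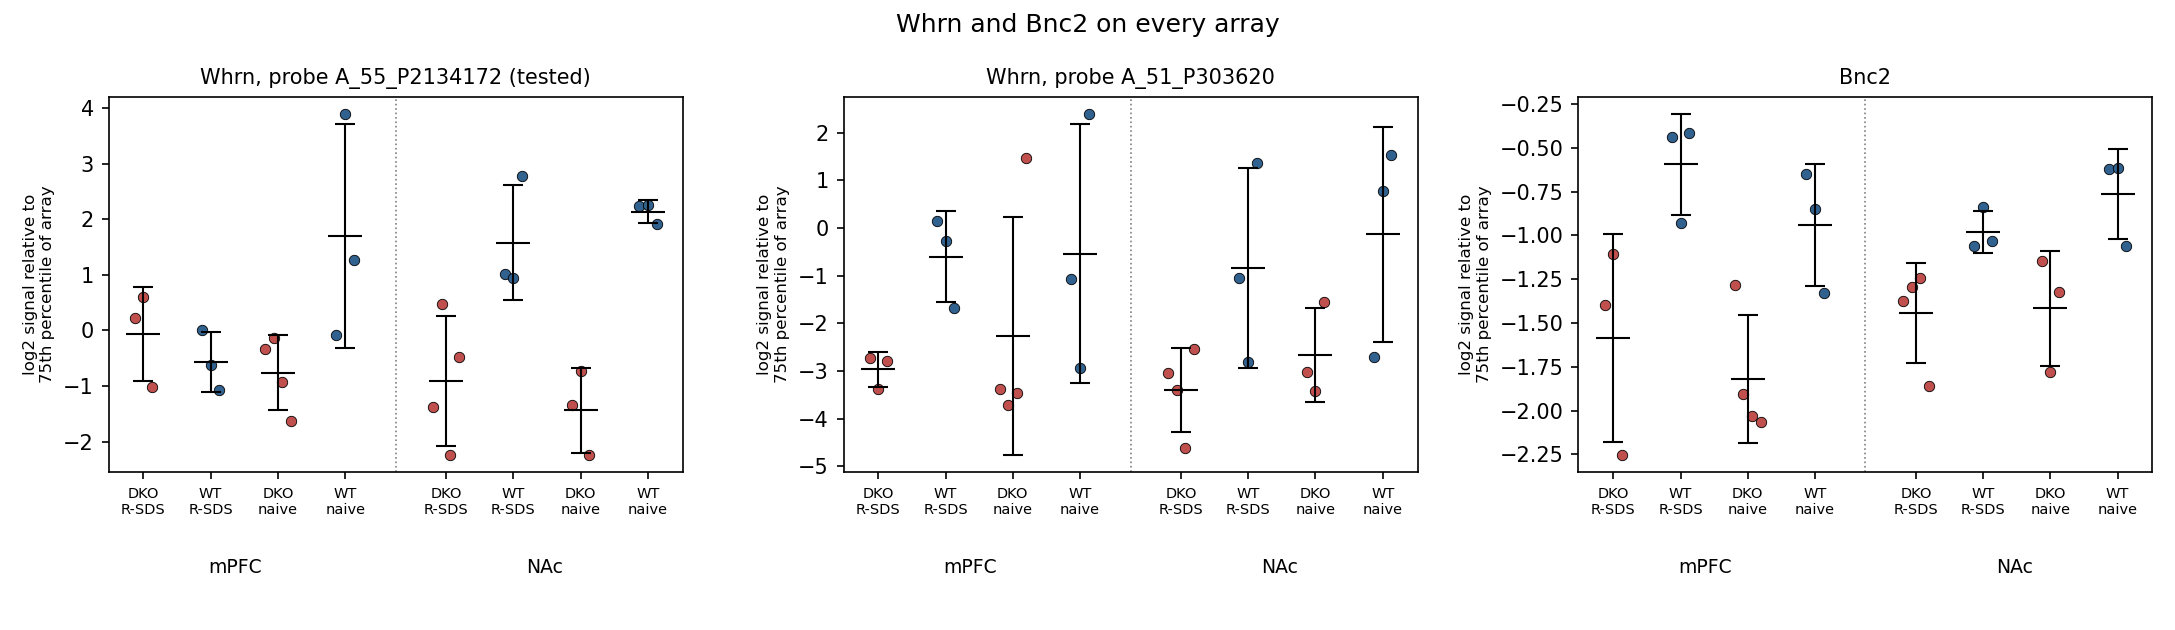
Level of Whrn on its 2 probes and of Bnc2 on each array (y axis, log2 signal minus the array's 75th percentile) by group (x axis, mPFC left and NAc right), with 1 point per array, TLR-DKO red and WT blue, and bars at the mean ± SD. In naive NAc the TLR-DKO arrays sit between -2.24 and -0.73 for Whrn on A_55_P2134172, below all WT arrays, and Bnc2 runs from -2.25 to -1.11 over all TLR-DKO arrays and from -1.33 to -0.42 over all WT arrays.

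The dimmer Whrn probe, A_51_P303620, carries another transcript accession of the gene and gave another pattern in the mPFC after R-SDS. It was well above background on 10 of 14 TLR-DKO and 11 of 12 WT arrays. In the mPFC after R-SDS it read -2.72, -3.38 and -2.78 in TLR-DKO, against 0.14, -0.27 and -1.68 in WT. The groups did not overlap there, unlike on the brighter probe. In naive mPFC it read -3.37, -3.71, -3.45 and 1.47 in TLR-DKO, against -1.08, -2.94 and 2.40 in WT. TLR-DKO replicate 4 stood alone among the WT values, and the groups overlapped. In naive NAc it read -3.02, -3.41 and -1.54 in TLR-DKO, against -2.70, 0.78 and 1.53 in WT. After R-SDS in the NAc it read -3.04, -3.40, -4.60 and -2.53 in TLR-DKO, against -1.05, -2.81 and 1.36 in WT. In each NAc setting 1 WT array lay among the TLR-DKO arrays. The differences, TLR-DKO minus WT, were -1.73 in naive mPFC, -2.36 in the mPFC after R-SDS, -2.53 in naive NAc and -2.56 in the NAc after R-SDS, each with an SE of at least 1.30. The 2 probes had a Pearson r of 0.33 over the 26 arrays, so the gene's level on an array depended on which probe was read. With the mean of both probes in place of the brighter one, the mPFC difference after R-SDS was -0.93 in place of 0.50.

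Bnc2 was lower in TLR-DKO in all 4 settings, with a smaller SE than Whrn. The difference was smaller than on the brighter Whrn probe except in the mPFC after R-SDS, where that probe was not lower. The single probe of Bnc2, A_55_P2281891, was well above background on all 26 arrays. In the mPFC after R-SDS it read -1.40, -1.11 and -2.25 in TLR-DKO, against -0.44, -0.93 and -0.42 in WT. All TLR-DKO arrays were below all WT arrays. In naive mPFC it read -1.28, -1.91, -2.03 and -2.07 in TLR-DKO, against -0.65, -0.85 and -1.33 in WT. TLR-DKO replicate 1, which stood apart over all genes, lay just above WT replicate 3, so these groups overlapped by 1 array. In naive NAc it read -1.15, -1.78 and -1.32 in TLR-DKO, against -0.62, -0.61 and -1.06 in WT. After R-SDS in the NAc it read -1.37, -1.30, -1.25 and -1.86 in TLR-DKO, against -1.06, -0.84 and -1.03 in WT. Neither NAc setting had an overlap, and in both the lowest WT array lay near the highest TLR-DKO array.

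The fitted Bnc2 differences, TLR-DKO minus WT, were -0.99 ± 0.32 (SE) in the mPFC after R-SDS, -0.88 ± 0.30 in naive mPFC, -0.65 ± 0.32 in naive NAc and -0.47 ± 0.30 in the NAc after R-SDS. These are linear ratios of 0.504, 0.544, 0.636 and 0.724. The mean of the 4 was -0.75 ± 0.16. Without the 2 arrays that stood apart the differences were -0.90 in the mPFC after R-SDS, -1.06 in naive mPFC and -0.77 in the mean of the 4. Over all arrays Bnc2 averaged -1.58 ± 0.39 (SD, n = 14) in TLR-DKO and -0.82 ± 0.28 (SD, n = 12) in WT.

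Among all genes, groups that did not overlap were common in a single setting and rare in several. TLR-DKO below WT without overlap was found for 2.63% of genes in naive mPFC, 6.15% in the mPFC after R-SDS, 3.88% in naive NAc and 5.07% in the NAc after R-SDS. TLR-DKO above WT without overlap was found for 3.10%, 3.05%, 3.52% and 2.10% of genes in the same order. In 3 or more of the 4 settings it was found for 24 genes (0.0970%), among them Whrn and Bnc2. In all 4 it was found for Tlr2, Grxcr1 and an unnamed probe, NAP060823-1. Since the genes were chosen on this difference, their presence among the 24 is how they were picked and supports nothing.

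The arrays are spread over 4 slides, each with a single region, and each scan day took 1 slide of either region. Each slide holds both genotypes, so their difference can be described within slides. For Bnc2 the TLR-DKO and WT means were -1.26 and -0.72 on slide 1, -2.06 and -0.87 on slide 2, -1.27 and -0.84 on slide 3, and -1.55 and -0.90 on slide 4. All TLR-DKO arrays lay below all WT arrays on each of the 4 slides, with R-SDS and naive arrays pooled. Of the 24738 genes, 5 (0.0202%) did so, namely Bnc2, Fcrls, Grxcr1, Tlr2 and NAP060823-1, and 0 genes lay above WT on all 4 slides. These are the same arrays and the same difference on which Bnc2 was chosen, so its place among the 5 supports nothing. For the brighter Whrn probe the differences were -0.64, -1.02, -2.15 and -3.74 on slides 1 to 4, and the genotypes were separated on the 2 NAc slides. With slide as a block the mean of the 4 differences was -0.68 for Bnc2 and -1.92 for Whrn.

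The other 5 tested genes showed smaller or less regular differences between genotypes, and the groups overlapped in all settings but 1. Trim32, the ubiquitin ligase 4 places from Tlr4, differed by -0.91 ± 0.70 (SE) in naive mPFC, -0.97 ± 0.75 in the mPFC after R-SDS, -0.49 in naive NAc and 0.42 in the NAc after R-SDS. Its arrays ran from -0.26 to 2.82 in TLR-DKO mPFC naive and from 1.77 to 2.84 in WT mPFC naive, so single groups spread over most of the gene's range. With both arrays that stood apart left out, Trim32 differed by -1.27 in naive mPFC and -1.18 in the mPFC after R-SDS, and without WT mPFC naive replicate 2 by -0.59 in naive mPFC. Pappa, the protease 6 places away, differed by -0.60 ± 0.46, -0.73, -0.40 and -0.16 in the same order. Its naive mPFC difference depended on single WT arrays. It was -0.13 without WT mPFC naive replicate 2, -1.20 without WT mPFC naive replicate 3 and -0.19 with slide as a block. Without the 2 arrays that stood apart the mPFC differences of Pappa were -0.76 naive and -0.77 after R-SDS. Pappa was lower in TLR-DKO on each of the 4 slides, with differences of -0.47, -0.45, -0.22 and -0.32 and an overlap on all of them. Cdk5rap2, the centrosomal protein, differed by -0.41 ± 0.48, 0.16, -0.30 and -0.59 on its brighter probe and by 0.50, -0.82, -0.51 and -0.07 on the other. Its 2 probes match the same accession and had opposite signs in both mPFC settings. Without the 2 arrays that stood apart the brighter Cdk5rap2 probe differed by -0.44 in naive mPFC and 0.61 in the mPFC after R-SDS.

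Akna and Atp6v1g1 were the members with a higher mean level in TLR-DKO. Akna differed by 0.50 ± 0.66 in naive mPFC, 1.07 ± 0.71 in the mPFC after R-SDS, -0.54 in naive NAc and 1.26 ± 0.66 in the NAc after R-SDS. In the mPFC after R-SDS it read 0.59, 0.61 and 2.46 in TLR-DKO, against -0.21, 0.17 and 0.50 in WT, without overlap, as for 3.05% of all genes. Akna differed between scan days, with 0.45 ± 0.51 on day 1 and 1.97 ± 0.65 on day 2 (SD, n = 13 each). Within slides its genotype difference was 0.32, 0.69, 0.19 and 0.33, and with scan day as a block the naive mPFC difference was -0.08. That difference was -0.26 without WT mPFC naive replicate 2 and 0.88 without the 2 arrays that stood apart, so its sign depended on single arrays, and without those 2 arrays Akna differed by 1.24 in the mPFC after R-SDS. Atp6v1g1, the proton pump subunit, differed by 0.78 ± 0.34, -0.01, 0.51 and 0.27 in the same order as Akna. Its 26 arrays lay between 3.41 and 5.43, and its slide differences were 0.20, 0.96, 0.30 and 0.46. Atp6v1g1 without the 2 arrays that stood apart differed by 0.59 in naive mPFC and -0.23 in the mPFC after R-SDS. In the mean of the 4 the differences without these arrays were -0.63 for Trim32, -0.52 for Pappa, -0.18 for Cdk5rap2, 0.71 for Akna and 0.28 for Atp6v1g1.

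None of the 7 members passed the adjusted threshold in any of the genotype comparisons as fitted. In the mean of the 4, 3 alternative settings put Whrn or Bnc2 past it. Both were chosen on this difference, so that carries no test. Over all genes the share called by limma (Benjamini-Hochberg adjusted p under 0.05) was 0.0121% in naive mPFC, in the mPFC after R-SDS and in naive NAc, 0.00808% in the NAc after R-SDS and 0.0202% in the mean of the 4. These shares are 2 to 5 genes, so a call was rare for any gene, and nothing is read from the members' count. Of the 7 members, 2 were higher and 5 lower in TLR-DKO in the mean of the 4, where 61.45% of all genes were lower, with a median difference of -0.47 where the median of all genes was -0.09.

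**Figure D2:**
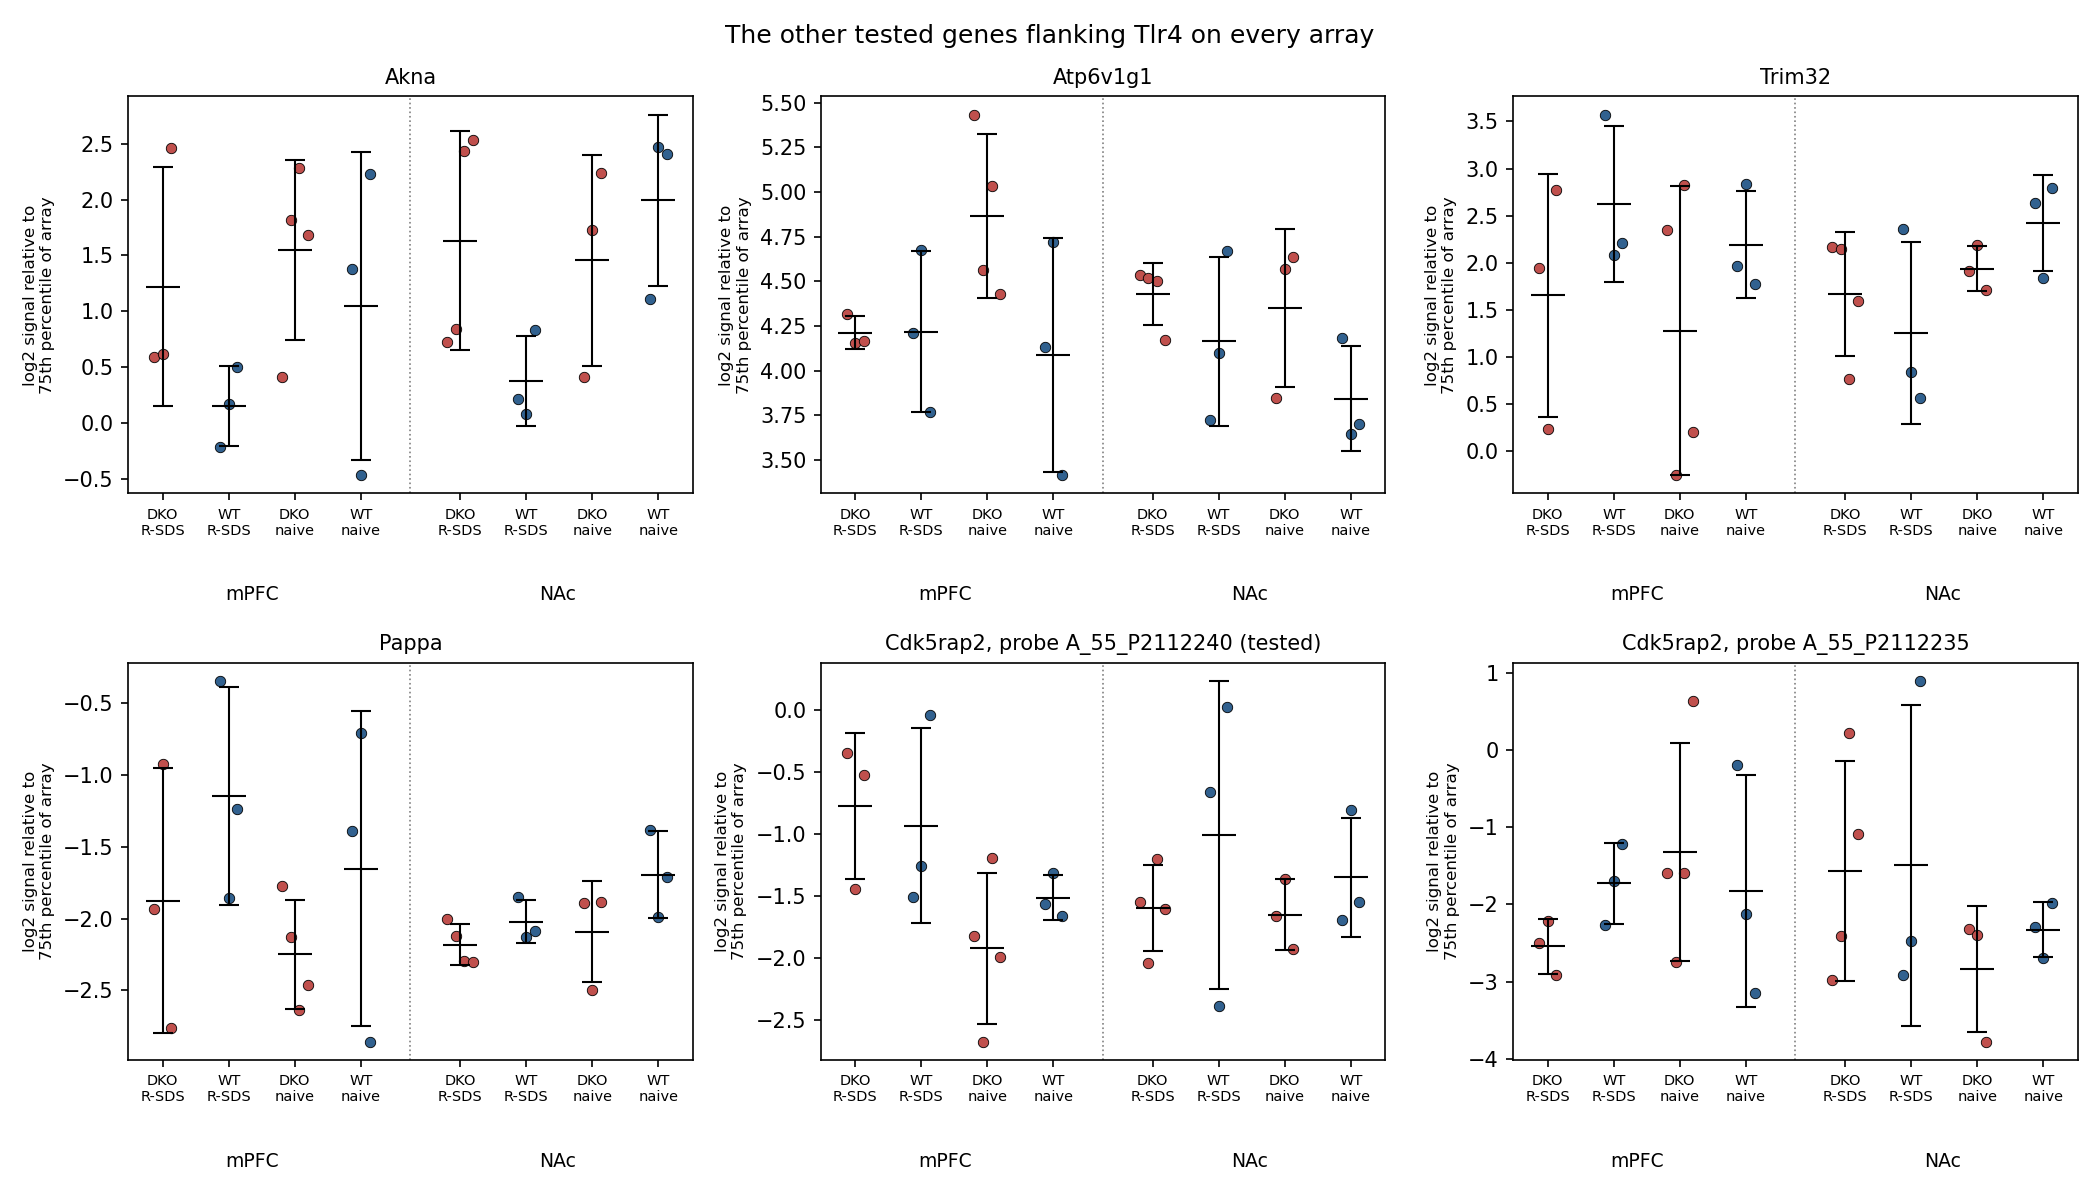
Level of Akna, Atp6v1g1, Trim32, Pappa and both Cdk5rap2 probes on each array (y axis, log2 signal minus the array's 75th percentile) by group (x axis, mPFC left and NAc right), with 1 point per array, TLR-DKO red and WT blue, and bars at the mean ± SD. Most TLR-DKO and WT groups overlap, Atp6v1g1 runs from 3.41 to 5.43, and WT Akna after R-SDS in the mPFC sits between -0.21 and 0.50.

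Astn2 and Tnc were at the edge of detection. The Astn2 probe was well above background on 1 of 14 TLR-DKO and 0 of 12 WT arrays, and read from -6.10 to -3.44 in TLR-DKO and from -5.58 to -2.90 in WT. The 2 Tnc probes were well above background on 0 and 1 of 26 arrays. No fold is given for either gene, and a difference between groups was not detectable at this signal. This leaves the Tlr4 ligand of the set without a measurement.

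The genes that lie next to Tlr4 and are no member were counted to set Whrn and Bnc2 against their surroundings. Of 92 RefSeq genes up to 50 places from Tlr4, 13 were tested, and 0 were called in any of the 5 genotype comparisons. In the mean of the 4 differences 0 of the 13 had an unadjusted p under 0.05, where 8.20% of all genes did, and their median was -0.02. With only 13 genes a count of 0 is near that share, and nothing is read from it. Of 291 genes up to 150 places away, which takes in the distance of Bnc2, 50 were tested, 0 were called and 5 had an unadjusted p under 0.05 in that mean. Over the whole chromosome the shares were 0 called and 8.95% of 905 genes. The gene called on chromosome 4 in a single setting was Msantd3, 288 places from Tlr4, with -6.87 ± 0.94 (SE) in the mPFC after R-SDS (limma adjusted p = 0.00288). Msantd3 was also called in R-SDS against naive in WT mPFC. Both comparisons use the WT mPFC R-SDS arrays, among them replicate 3, which stood apart, and are not independent. Around Tlr2, on chromosome 3, 83 genes up to 150 places away were tested and 2 were called in the mean of the 4, both lower in TLR-DKO. These were Fcrl1 at -3.22 ± 0.47 (72 places from Tlr2, limma adjusted p = 0.00845) and Fcrls at -1.17 ± 0.19 (68 places, limma adjusted p = 0.0319). Fcrl1 and Fcrls encode Fc receptor-like proteins, and both lie closer to Tlr2 in gene order than Bnc2 lies to Tlr4. The difference between the surroundings of Tlr2 and Tlr4 was not tested.

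**Figure D3:**
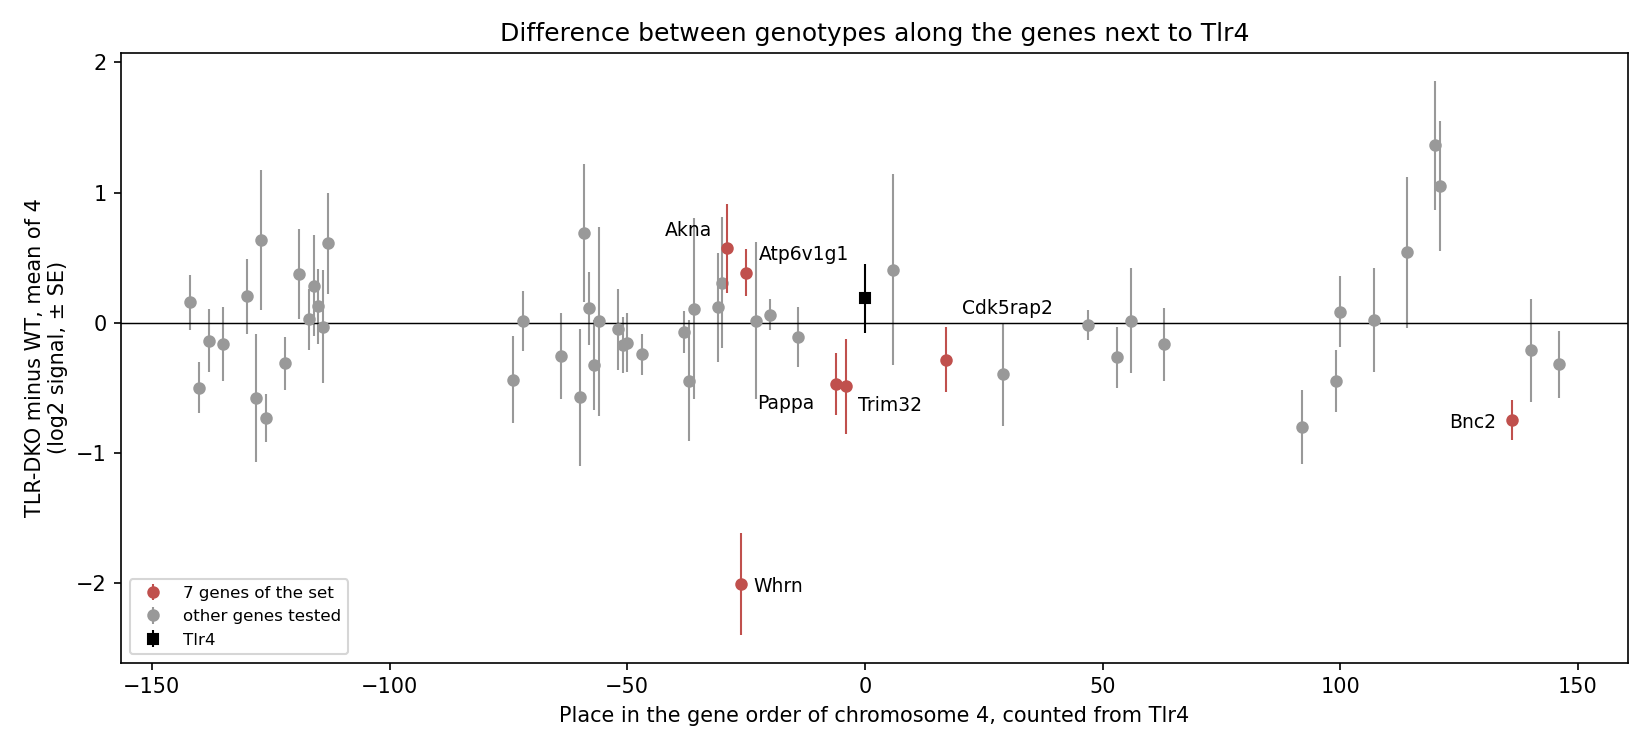
Mean of the 4 TLR-DKO minus WT differences (y axis, log2 signal, bars ± SE) for each tested gene up to 150 places from Tlr4 in the gene order of chromosome 4 (x axis), with the 7 tested members in red, the 50 other genes in grey and Tlr4 as a black square. Whrn at -2.01 lies below every other gene shown, Bnc2 at -0.75 lies among the lower ones, and Akna (0.57) and Whrn lie 3 places apart with opposite signs.

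The effect of R-SDS, which played no part in choosing the genes, was tested in each genotype and region. No member passed the threshold in any of the 4 comparisons. The shares of all genes called were 0.00% in TLR-DKO mPFC, 0.00808% in WT mPFC, 0.00808% in TLR-DKO NAc and 0.00% in WT NAc, so few genes of any kind were called with 3 or 4 arrays a group. The shares of all genes at an unadjusted p under 0.05 were 5.09%, 5.90%, 3.04% and 2.92% in the same order, and 1, 1, 0 and 1 of the 7 members met it.

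Whrn in WT mPFC was the first of these. R-SDS minus naive it differed by -2.26 ± 0.81 (SE, limma adjusted p = 0.831), with 0.0044, -0.62 and -1.08 after R-SDS, against -0.07, 3.91 and 1.27 in naive mice. The groups overlapped, since the lowest naive array lay just below the highest R-SDS array. Without WT mPFC naive replicate 2 the difference was -1.16, and without the 2 arrays that stood apart it was -2.01. Within slide 1 it was -2.22 (2 against 2 arrays, naive replicate 2 among them). Within slide 2 it was -2.35 (1 against 1 array, the R-SDS array being replicate 3, which stood apart). In TLR-DKO mPFC Whrn differed by 0.69 ± 0.75 (0.83 without these 2 arrays), in TLR-DKO NAc by 0.53 ± 0.75 and in WT NAc by -0.56 ± 0.81. On the dimmer Whrn probe the WT mPFC difference was -0.06 ± 1.39, so the lower level after R-SDS was seen on 1 of 2 probes. The R-SDS difference in WT mPFC and the genotype differences in the mPFC use the same WT arrays and are not independent of each other, and whether the R-SDS effect differed between genotypes was not tested, because the genes were chosen on the genotype difference.

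Cdk5rap2 in TLR-DKO mPFC was the next. Its brighter probe read -0.35, -1.44 and -0.52 after R-SDS, against -1.82, -2.67, -1.19 and -1.99 in naive mice, with a difference of 1.15 ± 0.48 (SE, limma adjusted p = 0.924). The groups overlapped, and the other probe of the same accession differed by -1.22 ± 0.90, in the opposite direction. The brighter probe differed by 1.18 without the 2 arrays that stood apart. Akna in WT NAc read 0.22, 0.08 and 0.83 after R-SDS, against 1.11, 2.47 and 2.40 in naive mice, a difference of -1.62 ± 0.71 (limma adjusted p = 1). These groups did not overlap, and 3.69% of all genes were lower without overlap in WT NAc. Of the 3 R-SDS arrays 2 were scanned on day 1, where Akna was dim, and 1 of the 3 naive arrays was, and with slide as a block the difference was -1.16. Atp6v1g1 in TLR-DKO mPFC read 4.32, 4.16 and 4.16 after R-SDS, against 5.43, 4.56, 5.04 and 4.43 in naive mice, a difference of -0.65 ± 0.34 (limma adjusted p = 0.967). These groups did not overlap either, as for 4.09% of all genes. With slide as a block the difference was -0.92, and without the 2 arrays that stood apart it was -0.46.

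Bnc2 differed with R-SDS by 0.24 ± 0.30 (SE) in TLR-DKO mPFC, 0.35 ± 0.32 in WT mPFC, -0.03 ± 0.30 in TLR-DKO NAc and -0.21 ± 0.32 in WT NAc. The Bnc2 differences without the 2 arrays that stood apart were 0.41 in TLR-DKO mPFC and 0.26 in WT mPFC. Trim32 ranged from -1.17 to 0.43 and Pappa from -0.33 to 0.50 over the 4 comparisons, and without these arrays Trim32 stood at 0.73 in TLR-DKO mPFC and 0.64 in WT mPFC, and Pappa at 0.53 and 0.55. Of the 7 members, 5 were higher and 2 lower after R-SDS in TLR-DKO mPFC, 5 and 2 in WT mPFC, 4 and 3 in TLR-DKO NAc, and 2 and 5 in WT NAc. Of all genes 53.88%, 37.78%, 51.87% and 45.18% were lower after R-SDS in the same order. A p above the threshold does not show that the levels were alike.

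**Figure D4:**
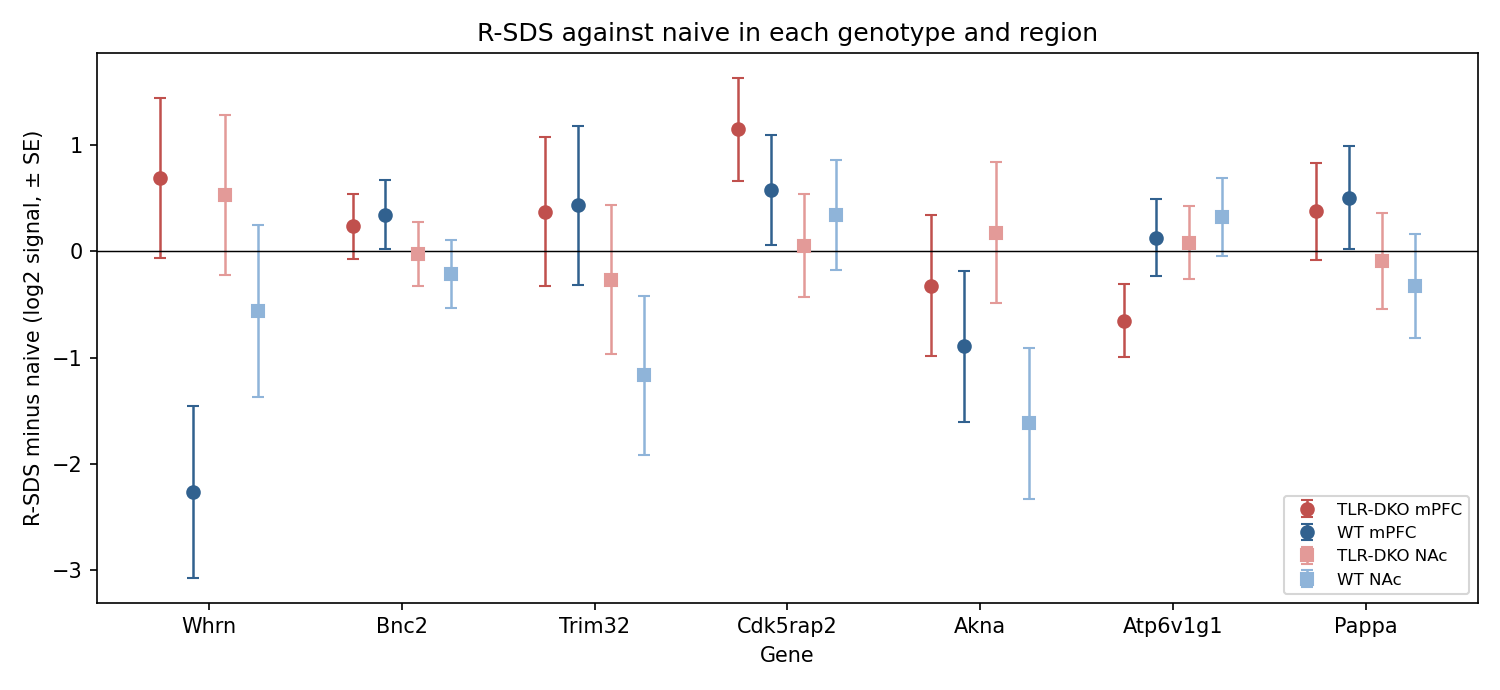
R-SDS minus naive difference of the 7 tested genes (y axis, log2 signal, bars ± SE) in TLR-DKO mPFC, WT mPFC, TLR-DKO NAc and WT NAc (colours and marker shapes, genes on the x axis). Whrn in WT mPFC (-2.26) lies farthest from 0, Akna in WT NAc (-1.62), Trim32 in WT NAc (-1.17) and Cdk5rap2 in TLR-DKO mPFC (1.15) follow, and none of the values passed the threshold.

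Region was tested as well, NAc against mPFC over the 4 pairs of groups, with slide as a random block because each slide holds 1 region. None of the 7 members differed at the threshold (limma adjusted p of 0.944 or more), and 0.00% of all genes did. The differences, NAc minus mPFC, were 0.29 ± 0.54 (SE) for Whrn, 0.10 ± 0.20 for Bnc2, 0.30 for Akna, -0.09 for Trim32, -0.13 for Atp6v1g1, -0.14 for Cdk5rap2 and -0.23 for Pappa. Without the 2 arrays that stood apart they were 0.27 for Whrn, 0.18 for Bnc2, 0.24 for Akna, -0.08 for Trim32, -0.15 for Atp6v1g1, -0.01 for Cdk5rap2 and -0.19 for Pappa.

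Markers of other brain cells gave signal in the sorted samples, and Snap25, which encodes a synaptic protein of neurons, moved with Bnc2. Whether the Snap25 signal came from neurons was not tested. Of 8 neuron markers, 2 were well above background on all 26 arrays, Snap25 at a mean level of 5.35 and Rbfox3 at -2.27, and the other 6 were well above background on 2 to 10 arrays. Snap25 made up 77.3% to 99.4% of the summed linear signal of the 8 markers on an array, so the sum is close to the level of that 1 gene. The log2 of this sum ran from 4.80 to 6.14 over TLR-DKO arrays and from 4.78 to 6.81 over WT arrays, and 7 of the 8 markers were lower in TLR-DKO, with a median difference of -0.47, as were 61.45% of all genes in the mean of the 4. Group means of that sum were 5.39 in TLR-DKO and 6.10 in WT after R-SDS in the mPFC, 5.22 and 5.70 in naive mPFC, 5.01 and 5.52 after R-SDS in the NAc, and 5.21 and 5.46 in naive NAc. The group means were lower in TLR-DKO in each setting, without a test, and single arrays overlapped. In naive mPFC WT replicate 3, at 4.78, lay below all 4 TLR-DKO arrays, and after R-SDS the highest WT array, at 6.81, was replicate 3, which stood apart over all genes. Of the other lists, 7 of 7 markers of mural cells and fibroblasts and 5 of 6 of oligodendrocytes were lower in TLR-DKO. So were 4 of 5 of astrocytes and 3 of 4 of endothelial cells. Lower too were 2 of 3 of monocytes, 2 of 5 of perivascular macrophages and 4 of 8 of microglia. Such counts include dim markers. Only 2 of the 7 mural and fibroblast markers stood well above background on all 26 arrays, and 1 did on none. Among monocyte and perivascular macrophage markers 0 did so on all 26.

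Bnc2 was higher on arrays with a higher marker sum, which here means more Snap25 signal. Over the 26 arrays Pearson's r was 0.73 and Spearman's rho 0.80, values that include the genotype difference on which Bnc2 was chosen and so carry no p. With both measures centred within genotype r was 0.65 (permutation within genotypes, p = 0.00011, 0.00099 after adjustment over the 18 relations computed) and rho 0.77 (permutation p = 5e-05, adjusted 0.0009). Without the 2 arrays farthest from the median sum this r was 0.72. It was 0.66 in TLR-DKO (n = 14) and 0.74 in WT (n = 12). Within slides 1 to 4, with both genotypes pooled, r was 0.43, 0.85, 0.90 and 0.77 (n of 7, 6, 6 and 7), which includes the genotype difference. The permutations mixed slides and scan days (day 1 for slides 1 and 3, day 2 for slides 2 and 4). In each genotype and region, Bnc2 (slide means above) and the sum were lower on the day 2 slide. Mean sums on slides 1 to 4 were 5.72, 4.97, 5.12 and 5.08 in TLR-DKO, and 5.96, 5.80, 5.58 and 5.40 in WT. The part of slide and scan day in these correlations was not tested, and the permutation p does not allow for it. Bnc2 also ran against the log2 of the array's 75th percentile, which is subtracted from every level. Within genotypes that r was -0.43 (permutation p = 0.0164, adjusted 0.0983) and rho -0.35 (permutation p = 0.0883, adjusted 0.448). It was -0.25 without the 2 farthest arrays, -0.19 in TLR-DKO and -0.73 in WT. The part of array brightness in the marker correlations was not tested. Other neuron markers had lower correlations. Within genotypes r with Bnc2 was 0.70 for Snap25 alone, 0.23 for Rbfox3 and from -0.34 to 0.14 for the other 6, and it was -0.20 for the mean log2 level of the 7 markers other than Snap25. Of the 4 endothelial markers Kdr was the brightest, at a mean level of 2.77, and the others averaged from -4.23 to -1.25. The endothelial sum was thus mostly Kdr, and r with single endothelial markers is not given here. With this sum the r of Bnc2 within genotypes was 0.73 (permutation p = 4e-05, adjusted 0.00072) and rho 0.74 (permutation p = 0.00011, adjusted 0.00099). This r was 0.75 without the 2 farthest arrays. Over the 26 arrays r was 0.50 and rho 0.38, values that include the genotype difference. The sum averaged 2.98 in TLR-DKO and 3.14 in WT after R-SDS in the mPFC, and 2.94 and 2.91 in naive mPFC. In the NAc it averaged 2.91 and 2.93 after R-SDS, and 2.85 and 2.77 in naive mice. Whrn had an r within genotypes of 0.02 with the neuron marker sum (permutation p = 0.927, adjusted 0.982) and of -0.28 with the endothelial sum (permutation p = 0.170, adjusted 0.361).

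With the neuron marker sum, mostly Snap25, as a covariate in the fit, an alternative chosen after seeing the data, the mean of the 4 Bnc2 differences was -0.50 ± 0.14 (SE) in place of -0.75 ± 0.16. The 4 single differences of Bnc2 were -0.63 in naive mPFC, -0.63 in the mPFC after R-SDS, -0.52 in naive NAc and -0.21 in the NAc after R-SDS. All 4 kept their sign and were smaller in size than without it. Whrn was at -1.72 ± 0.44 in place of -2.01 ± 0.39. Pappa moved more than either, to -0.05 ± 0.19 in place of -0.47 ± 0.24, and Akna stood at 0.11 in place of 0.57.

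**Figure D5:**
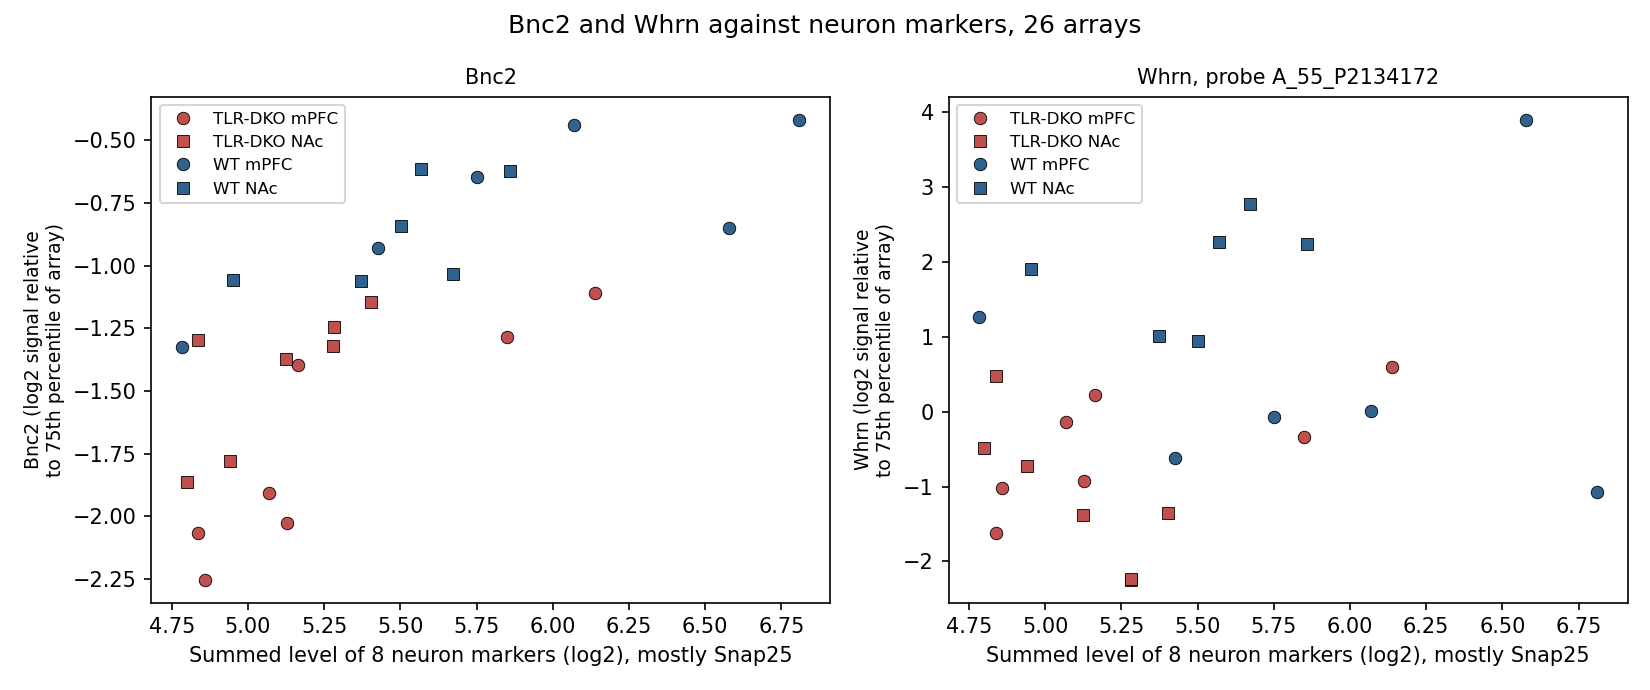
Level of Bnc2 (left) and Whrn on A_55_P2134172 (right) on each of the 26 arrays (y axis, log2 signal minus the array's 75th percentile) against the summed signal of 8 neuron markers on the same array (x axis, log2, mostly Snap25), TLR-DKO red and WT blue, circles mPFC and squares NAc. Bnc2 is higher on arrays with a higher sum in both genotypes (r = 0.66 in TLR-DKO and 0.74 in WT), and Whrn shows no such course (r = 0.21 and -0.07).

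The genes whose levels over the 26 arrays ran closest to Whrn and Bnc2 were found among the 14370 other named genes tested, as a description with no test. For Whrn these were Slc36a2, an amino acid transporter (r = 0.75), Dnajb14, a chaperone (0.67), and Tlr2 (0.66), all on other chromosomes. The likeness to Tlr2 was not present within genotypes (0.03 in TLR-DKO and 0.15 in WT), while that to Slc36a2 was (0.54 and 0.68). Utp11 (-0.67), Gcn1 (-0.63) and Cwf19l1 (-0.63) ran most against Whrn, and of these Utp11 lies on chromosome 4. For Bnc2 the closest were 5730419F03Rik (0.84), Olfr1402 (0.83) and Lrrc19 (0.82), of which Lrrc19 lies on chromosome 4. Within TLR-DKO these were 0.71, 0.74 and 0.84, and within WT 0.94, 0.70 and 0.76. Eny2 (-0.78) and Hnrnpc (-0.72) were among those that ran most against it. Whrn and Bnc2 themselves had an r of 0.44 on the brighter Whrn probe and 0.24 on the dimmer one. The arrays compared share slides and scan days, and the part of these in the likeness was not tested.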

How the data were processed

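Whole-genome expression was measured on single-colour Agilent arrays (Cy3) in 26 pooled microglia samples of 8 groups, taken from the labels. The authors' deposited scanner files hold linear spot intensity values. Per the submitters' processing notes they come from Agilent Feature Extraction 11.0.1.1, and the processed signal is already background-subtracted. The deposited matrix of log2 values, of unstated centring, scale and direction, had an r of at least 0.99999 with log2 of the processed signal of each array and differed from it by a constant, and it served as an alternative. The file headers name build mm9, so the RefSeq table (GRCm38.p6) gave names, gene order and promoter windows of its own build only.

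Of 62976 spots, 59305 were no controls and held 55681 probes. Outlier flags removed 108 probes, and 0 spots were saturated. Each array's 75th percentile was subtracted on the log2 scale. Of 29796 probes with a RefSeq-style accession 28026 were named. A probe was kept if some group had 3 or more arrays where it stood well above background, and the brightest stood for its gene. Between 50.0% and 71.0% of an array's spots stood well above background, which sets how many dim genes were tested, and the median SD within a group was 0.61. In R 4.3.3, limma 3.58.1 (lmFit, then eBayes) fitted 1 mean for each of the 8 groups to all arrays. Its two-sided p was adjusted over all 24738 genes (Benjamini-Hochberg, threshold 0.05). The code was tested on simulated data. Permutation tests of correlations drew 100000 permutations within genotypes, across slides and scan days, and were two-sided.

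The genes named are the 9 members, Tlr2, Tlr4 and Cx3cr1 as checks, called neighbours of Tlr4 (none qualified) and the 3 most and 3 least alike genes of Whrn and Bnc2, of which 1 is not reported here. Genes of other counts of 5 or fewer, Msantd3, Fcrl1, Fcrls and Grxcr1 among them, were named after their values were seen. The members, lists and alternatives were chosen with earlier results of these data known. The replicate numbers were not taken to pair the samples. Between groups of a region, deviations of same-numbered samples correlated with r from -0.14 to 0.26 (median 0.06). For samples with other numbers r ran from -0.23 to 0.22 (median -0.03). Same-numbered samples of mPFC and NAc were not compared, so a pairing across regions was not checked. Alternatives covered background correction (normexp, offset 50, on the median signal, as the mean signal was not used here), normalization, filter, probes of a gene, samples in the fit, slide, scan day, replicate number, array weights and leaving out arrays. The neuron covariate was chosen after seeing the data.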

Additional observations from a re-analysis of the deposited data

Results flagged for a closer look

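Among 19 groups of 4 samples examined, 2 held an array far from the other 3 by Dixon's criterion, which chance alone meets in about 1 of 20 groups. The dimmer Whrn probe, A_51_P303620, read 1.47 on TLR-DKO mPFC naive replicate 4, while the other 3 samples of that group read -3.37, -3.71 and -3.45. The brighter Whrn probe read -1.62 on the same array, the lowest of its group. Atp6v1g1 read 4.17 on TLR-DKO NAc R-SDS replicate 4, while the other 3 samples read 4.53, 4.52 and 4.50.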

How the results depend on the processing

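Of 1659 recomputed values of the 7 members, 1603 stayed within 1 SD and on their side of the threshold. A further 53 moved by more, and 3 passed the threshold, all in the mean of the 4 genotype differences. These were Whrn with the mean of its probes, Whrn without WT mPFC naive replicate 1, and Bnc2 with array weights. Both genes were chosen on this difference, so the 3 passes are a description and carry no test. Bnc2 stayed lower in TLR-DKO in each of the 4 settings and in their mean under every alternative run (mean of 4 from -0.81 to -0.45), and so did Whrn outside the mPFC after R-SDS (mean of 4 from -2.23 to -1.51, and -0.93 to 0.98 in that setting).

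Counts of all genes called moved more. In TLR-DKO against WT, naive mPFC gave 3, 6 without the 2 arrays that stood apart, 1 with only the groups compared, and 2 to 5 leaving out each array. The mPFC after R-SDS gave 3, 13 with array weights, 0 with only the groups compared, and 3 to 7 leaving out each array. Naive NAc gave 3, 0 with only the groups compared, and 2 to 4 leaving out each array, and the NAc after R-SDS gave 2, and 2 to 3. The mean of 4 gave 5, 2 with quantile normalization, 3 with no filter, 8 with slide or scan day as a block, 14 with array weights, 3 without the 2 arrays, 3 with the neuron covariate, and 3 to 12 leaving out each array. In R-SDS against naive, TLR-DKO mPFC gave 0, 2 with array weights or without the 2 arrays, 1 with only the groups compared, and 0 to 2 leaving out each array. WT mPFC gave 2, 1 with normexp, quantile normalization, the deposited matrix or the neuron covariate, 0 with only the groups compared, and 0 to 2 leaving out each array. TLR-DKO NAc gave 2, 0 with normexp or only the groups compared, 1 with quantile normalization or array weights, and 0 to 2 leaving out each array, and WT NAc gave 0 throughout. NAc against mPFC gave 0, 224 with no slide block, 1381 with scan day as a block (where the estimated slide correlation was -0.04 in place of 0.14), 4 with array weights, and 0 to 1 leaving out each array. Genes next to Tlr4 gave 0 in all 7 alternatives. The cause of these moves was not tested, apart from fewer arrays where groups or arrays were left out.

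The replicate number as a block gave 1 gene in place of 2 in TLR-DKO NAc, and moved no other count by over 1.5 times. The main fit did not use the numbers as pairs. Limits are the 3 or 4 arrays a group, dim probes (Astn2 and Tnc), and 2 slides a region.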
